A study of Mus musculus with 32 samples.

Results

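The 1420 protein-coding genes that span 100 to 200 kb of the mouse genome were examined for RNA level, repair and remaining damage after cisplatin. They were taken from the genes in the processed files that GENCODE release M21 annotates as protein-coding on the mouse assembly GRCm38 (mm10), with a span from 100000 to 199999 bp between the annotated start and end. They make up 7.62% of the 18639 protein-coding genes in the files and 5.67% of all 25040 genes with a position, and 19.4% of the summed span of the protein-coding genes. The study mapped cisplatin damage, its excision repair and the transcriptome in 4 organs of the mouse. Female C57BL/6J mice of 6 to 7 months, with no engineered allele named in the labels, were given cisplatin at 10 mg/kg by intraperitoneal injection at zeitgeber time 1 and were killed at zeitgeber time 5. This interval of 4 h is the one in the protocol, while a characteristic of the samples says 2 h. Control mice received saline. RNA-seq was made from kidney, liver, lung and spleen of both arms (16 libraries), and Damage-seq and XR-seq were made from the cisplatin arm alone (8 libraries each), with 2 libraries per organ and arm in each assay. The labels of the lung and spleen RNA-seq libraries were exchanged between the arms by the submitters in a later correction, and the corrected labels were used.

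Cisplatin joins neighbouring purines of one strand, most often a pair of guanines, and the resulting intrastrand adduct blocks RNA polymerase II. Nucleotide excision repair removes the adduct within a short oligomer. In transcription-coupled repair a stalled polymerase on the transcribed strand (TS) recruits the repair factors, whereas global repair acts on both the TS and the non-transcribed strand (NTS). XR-seq sequences the excised oligomers and so reads repair under way, and Damage-seq maps the adducts that remain. A long transcription unit offers a polymerase more potential blocking sites on its template than a short one.

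Introns make up most of the annotated span of these genes, so a stretch of 150 bases is shown for 4 of them: Pdgfc and Slc22a23, which were lower in RNA after cisplatin, Sgk1, which was higher, and Cd47, which had few remaining adducts on its TS. Each stretch is the template strand from GRCm38, 5′ to 3′, and is the window outside annotated exons and repeats whose GG counts on both strands lie nearest to the mean of its gene. Capitals mark GG runs, the possible adduct sites. Sgk1 and Cd47 each have 9 coding transcripts, 8 of them under 100 kb, and which transcripts cross the printed stretch was not examined.
Pdgfc, chr3:81046966-81047115, - strand: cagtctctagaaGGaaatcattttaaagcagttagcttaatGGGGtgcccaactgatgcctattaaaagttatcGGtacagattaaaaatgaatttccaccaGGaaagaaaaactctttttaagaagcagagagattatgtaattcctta
Slc22a23, chr13:34323208-34323357, + strand: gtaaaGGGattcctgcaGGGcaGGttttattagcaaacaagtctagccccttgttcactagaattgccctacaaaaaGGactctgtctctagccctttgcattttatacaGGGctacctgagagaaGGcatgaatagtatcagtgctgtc
Sgk1, chr10:21901884-21902033, - strand: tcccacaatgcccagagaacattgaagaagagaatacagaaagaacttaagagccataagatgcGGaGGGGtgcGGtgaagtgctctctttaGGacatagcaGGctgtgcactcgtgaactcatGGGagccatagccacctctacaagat
Cd47, chr16:49838083-49838232, - strand: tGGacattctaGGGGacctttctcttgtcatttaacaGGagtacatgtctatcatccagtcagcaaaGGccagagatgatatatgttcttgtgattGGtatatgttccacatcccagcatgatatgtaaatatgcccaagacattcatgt
The printed stretch holds 6 GG in Pdgfc, 9 in Slc22a23, 9 in Sgk1 and 7 in Cd47, overlapping pairs counted each.

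The genes of 100 to 200 kb had a median span of 132 kb, of which exons covered a median of 5.61%, against 19.1% in all protein-coding genes. Their median merged exon length was 7562 bp in 18 exon blocks, against 3918 bp in 8 blocks. The template strand held a median of 7120.5 GG and the coding strand 7181, against 1244 and 1289 in all protein-coding genes. Per kb the density was lower than in protein-coding genes at large, with 52.6 against 59.1 GG per kb on the template strand. D10Wsu102e was an exception in structure, since its exons covered 96.0% of its span. Genes of this size lay on 21 chromosomes, and 853 of them (60.1%) overlapped a gene annotated on the opposite strand, 27 over at least 50% of their span.

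The span of a gene is the envelope of its transcripts, and not every transcript ran through all of it. All annotated coding transcripts were 100 kb or longer in 510 of the 1420 genes, and the median coding transcript was under 50 kb in 165. Crp, the liver acute-phase protein, had 1 coding transcript, of 1908 bp. Sgk1, a serum and glucocorticoid-induced kinase, had 9, of which 8 were under 100 kb. The longest coding transcript was under 100 kb in 80 genes, among them Tet1, Zfp943 and Galnt16, which are named below. The median coding transcript was 14743 bp for Ccr9, 14417 bp for Cox16 and 3041.5 bp for Cacna1i. The shortest gene of the class was Map2k4 (100055 bp, chr11:65688243-65788297), a kinase of the stress-activated JNK pathway, and the longest was Atp9b (199920 bp), a phospholipid-translocating ATPase. Just outside the bounds lay Tut4 at 99996 bp and Pcbp3 at 200031 bp. In kidney the log2 fold change in RNA after cisplatin was -0.63 for Tut4, -0.64 for Map2k4, -0.96 for Atp9b and -0.99 for Pcbp3. In liver the values in the same order were -0.69, -0.52, -1.12 and -1.98, in lung -0.40, -0.26, -0.67 and -1.92, and in spleen -0.12, -0.12, -0.21 and -0.33. The log2 ratio of XR-seq repair on the transcribed over the other strand in kidney was 1.24, 4.01, 5.80 and 3.8 for these genes. The genes across each bound were thus close in some of these measures and apart in others.

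Reads on genes per library ranged from 15619474 to 162270280 in RNA-seq, from 10658675 to 59779770 in XR-seq and from 1571167 to 6441367 in Damage-seq. The genes of 100 to 200 kb took 16.7% to 20.3% of the XR-seq reads and 17.4% to 18% of the Damage-seq reads. Several libraries stood apart. The 2 RNA-seq control libraries of lung were close to copies of each other (a chi-square index of 2.75, where a value of 1 is pure sampling), as were those of spleen (2.99), so each pair was summed and counted as 1 sample, and the spread in these organs rests on the 2 cisplatin libraries, with 1 residual degree of freedom. XR-seq library 1 of kidney had no NTS read in 121 of the genes, 48 of them with at least 100 TS reads, against 3 genes in library 2. Library 1 of spleen had 78 such genes and library 1 of lung 30, and the other XR-seq libraries had at most 4. The cisplatin libraries of spleen carried transcripts of pancreatic acinar cells, with the summed level of 10 marker genes at 2571 and 1957 CPM (read counts scaled to library size) against 16.5 and 15.1 in the controls, all 10 being higher in both cisplatin libraries, and their part in the results was not tested. The 2 cisplatin libraries of spleen also differed from each other. Liver markers summed to 394 CPM in library 1 and 2.95 in library 2, against 35.7 and 13.6 in the controls. Adipocyte markers summed to 98.5 and 7.06 against 7.67 and 7.01, and erythroid markers to 17677.5 and 6833 against 10179.6 and 9725.84. The part of this in the spread of spleen was not tested. Markers of each labelled organ were high in that organ, and fewer cells of a type cannot be told apart from less RNA per cell in any of these bulk tissues.

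The first comparison asked how the RNA of these genes stood 4 h after cisplatin. Their share of RNA-seq reads was lower in the cisplatin arm of every organ. In kidney it was 7.66% and 7.68% in the control libraries and 4.91% and 4.92% in the cisplatin libraries. In liver it was 5.33% and 4.67% against 4.11% and 2.93%, in lung 8.29% and 8.36% against 6.42% and 7.11%, and in spleen 7.14% and 7.19% against 5.68% and 6.81%. The arms did not overlap in any organ, and the gap between them was narrowest in spleen.

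**Figure D1:**
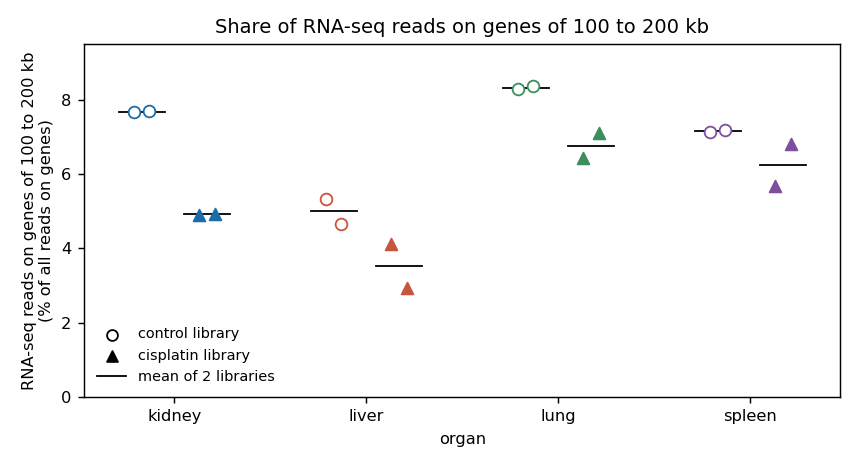
Share of each RNA-seq library's reads on genes that fell on the genes of 100 to 200 kb, in percent, by organ. Open circles are control libraries, triangles cisplatin libraries and bars the mean of 2 libraries; in kidney the share was 7.66% and 7.68% in control and 4.91% and 4.92% in cisplatin libraries.

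Gene by gene, the median log2 fold change of the class was -0.65 in kidney (1174 genes tested), -0.78 in liver (1036 genes), -0.44 in lung (1252 genes) and -0.24 in spleen (1186 genes), where the median over all genes tested lay between 0.00 and 0.03. These medians correspond to 0.637, 0.581, 0.739 and 0.849 of the control level, relative to the other RNA of the library. The scaling places the bulk of genes near a fold change of 0, so an absolute amount of RNA cannot be read from these values. The fold change was negative in 87.6% of the class (kidney), 89.5% (liver), 84.1% (lung) and 79.5% (spleen). Of the 1420 genes, 246 (kidney), 384 (liver), 168 (lung) and 234 (spleen) had too few reads to be tested. Of those tested, 29 (kidney), 34 (liver), 14 (lung) and 19 (spleen) had passed although 1 arm was under 0.5 CPM. Of the 997 genes tested in all 4 organs, 664 (66.6%) were negative in all 4 and 15 (1.5%) were positive in all 4, whereas of the 11911 genes of any kind tested in all 4 organs 20.6% were negative and 19.6% positive throughout. Leaving out any 1 library, or changing the normalization or filter, kept the sign of these medians in every organ.

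The control and cisplatin libraries did not overlap, with cisplatin lower, for 876 of the 1174 genes in kidney (74.6%), where 33.0% of all genes tested did the same. The counts were 579 genes in liver (55.9%, against 18.3% of all genes), 918 in lung (73.3%, against 34.9%) and 766 in spleen (64.6%, against 35.8%). With cisplatin higher, the libraries did not overlap for 44 genes of the class in kidney (background 24.6%), 24 in liver (background 20.3%), 103 in lung (background 35.8%) and 90 in spleen (background 29.8%). The control libraries of lung and spleen are near copies of each other, so non-overlap is easier to reach there. A gene was called where the Benjamini-Hochberg adjusted p over all genes was under 0.05 in edgeR's quasi-likelihood test, taken against a minimum change of 0.4 on the log2 scale. In kidney 156 genes of the class were called lower (background 2.87%) and 1 higher (background 2.59%). In lung 27 were called lower (background 1.63%) and 1 higher (background 0.0848%). Inpp5a, an inositol polyphosphate phosphatase, was the only gene of the class called lower in both, which is 0.641% of the genes called in kidney and 3.7% of those called in lung. The kidney count depended on 1 library, since 3 genes were called lower without cisplatin library 1 and 320 without control library 1. Leaving out a cisplatin library of lung leaves 1 sample in each arm, so the fit then took its spread from the other organs, and the lone lung samples are assumed to vary like them. In that fit edgeR called 0 genes of the class lower without either library, with 112 and 126 at an unadjusted p under 0.05.

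In liver and spleen edgeR called 0 genes of the class lower or higher (background 0.0% lower in liver, 0.0134% lower and 0.161% higher in spleen). At an unadjusted p under 0.05, 315 genes were lower (background 6.78%) and 5 higher (background 2.64%) in liver, and 53 were lower (background 2.63%) and 2 higher (background 1.76%) in spleen. DESeq2 called 26 of 1099 lower (background 1.15%) and 1 higher (background 0.186%) in liver, and 1 of 1212 lower (background 0.214%) and 0 higher (background 0.349%) in spleen. These fits held no term for the replicate number that the arms share. With such a term edgeR called more genes of the class lower in kidney and in liver, as given in the last section. The 2 cisplatin libraries of liver differed from each other more than those of kidney, and without cisplatin library 1 of liver 377 genes were called lower.

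The fold change followed span across protein-coding genes, and the class of 100 to 200 kb lay on that gradient. In kidney the median log2 fold change was 0.26 in genes under 10 kb, 0.07 from 10 to 50 kb, -0.27 from 50 to 100 kb, -0.65 from 100 to 200 kb, -0.92 from 200 to 500 kb and -0.81 in genes of 500 kb or more. In liver the same classes had medians of 0.40, 0.08, -0.31, -0.78, -1.45 and -1.36. In lung the medians ran 0.13, 0.06, -0.14, -0.44, -0.83 and -0.99, and in spleen 0.22, 0.04, -0.11, -0.24, -0.50 and -0.78. On this relative scale the direction of the class median was therefore opposite to that of the shortest genes in each organ.

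**Figure D2:**
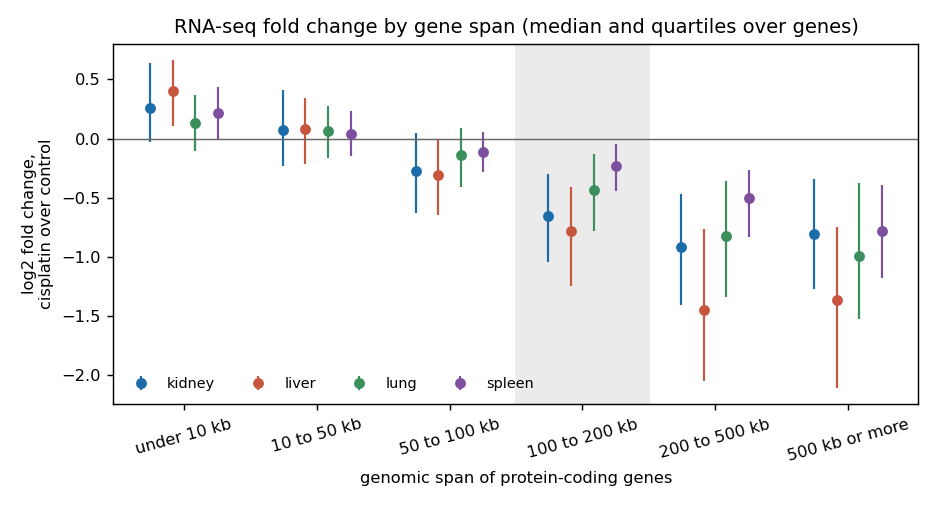
Median log2 fold change in RNA (cisplatin over control) of protein-coding genes in 6 classes of genomic span, by organ. Points are medians over genes and bars the quartiles; the shaded class of 100 to 200 kb has medians of -0.65 (kidney), -0.78 (liver), -0.44 (lung) and -0.24 (spleen).

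The same order was seen inside the class. From 100 to 125, 125 to 150, 150 to 175 and 175 to 200 kb (597, 367, 277 and 179 genes) the median log2 fold change was -0.57, -0.69, -0.76 and -0.80 in kidney and -0.59, -0.80, -0.96 and -1.29 in liver. It was -0.34, -0.48, -0.56 and -0.73 in lung and -0.17, -0.25, -0.29 and -0.36 in spleen. Genes called lower in kidney rose from 10.5% of those tested in the shortest of the 4 bins to 19.7% in the longest. Spearman's rho between fold change and span over the genes of the class was -0.17 in kidney (n = 1174), -0.30 in liver (n = 1036), -0.22 in lung (n = 1252) and -0.18 in spleen (n = 1186), while against exon length it lay between -0.10 and 0.09. These are descriptions across genes, which share libraries and are not independent replicates.

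Transcript structure moved with the fold change as well. In kidney the median was -0.76 in genes whose coding transcripts were all 100 kb or longer (383 tested) and -0.51 in genes whose median coding transcript was under 50 kb (140 tested). In liver the corresponding medians were -0.97 and -0.50, in lung -0.55 and -0.32, and in spleen -0.29 and -0.15. The difference from shorter genes was present at each expression level. In kidney the median was -0.34 for genes of the class from 0.5 to 2 CPM, -0.62 from 2 to 8 CPM, -0.77 from 8 to 32 CPM and -0.64 above 32 CPM, against 0.11, 0.03, 0.01 and 0.10 for protein-coding genes under 100 kb in the same bins.

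Genes were named by RNA in kidney and in lung only where the arms did not overlap. Among the genes called lower in kidney, those with the smallest adjusted p were a transporter-family member, a growth factor and regulators of transport and membranes. Slc22a23, an orphan member of the organic ion transporter family (chr13:34179158-34345182, minus strand), stood at 158 and 149 CPM in control kidney and 24.0 and 19.5 CPM after cisplatin. The log2 fold change was -2.76 ± 0.17 (SE, adjusted p = 0.00395, edgeR). Pdgfc, a platelet-derived growth factor (chr3:81036416-81214040), stood at 31.7 and 27.6 CPM in control and 4.16 and 4.97 CPM in cisplatin kidney. Its log2 fold change was -2.61 ± 0.23 (adjusted p = 0.00756). Klhl3, a substrate adaptor of the ubiquitin ligase that sets WNK kinase levels in the distal nephron, fell from 104 and 144 CPM to 15.8 and 18.8 CPM. For Klhl3 the log2 fold change was -2.78 ± 0.26 (adjusted p = 0.0087).

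Ston2, an endocytic adaptor, stood at 86.8 and 82.9 CPM against 22.5 and 23.9 CPM (log2 fold change -1.80, adjusted p = 0.00945). St8sia1, a sialyltransferase of ganglioside synthesis, stood at 147 and 150 CPM against 44.0 and 40.7 CPM (log2 fold change -1.75, adjusted p = 0.00962). Sgk1 was the 1 gene of the class called higher, with 129 and 145 CPM in control and 329 and 414 CPM in cisplatin kidney, a log2 fold change of 1.5 ± 0.21 (adjusted p = 0.0240). In spleen it stood at 60.6 and 58.9 against 84.0 and 91.9 CPM and in liver at 34.5 and 31.5 against 69.9 and 34.7 CPM, with no call. Its transcripts are mostly short, as given above. Without cisplatin library 1 the adjusted p of Ston2 was 0.0874, that of St8sia1 0.0849 and that of Sgk1 0.0893, with the same direction. Adipocyte markers in kidney summed to 61.8 and 192 CPM in control and 32.3 and 154 CPM in cisplatin libraries, so that list differed more between replicates than between arms.

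**Figure D3:**
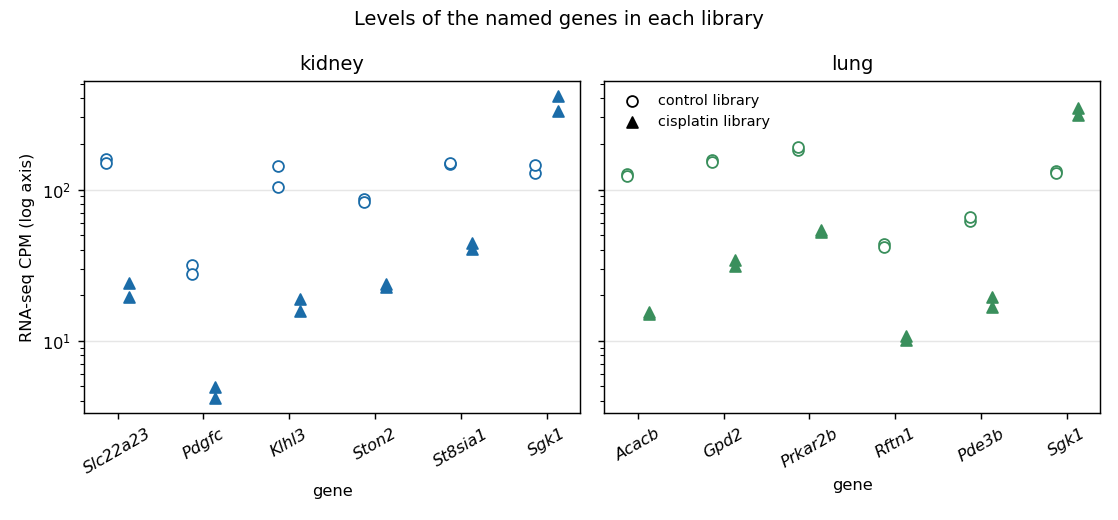
RNA-seq level in CPM on a log axis of the named genes in each kidney and lung library. Open circles are control and triangles cisplatin libraries. Only genes whose arms do not overlap were eligible, so the gap between the arms follows from the choice of genes. Sgk1 alone is higher after cisplatin in both organs.

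The genes called lower in lung with the smallest adjusted p act in lipid and energy metabolism and in signalling. Acacb, the mitochondrial acetyl-CoA carboxylase that restrains fatty acid oxidation (chr5:114146535-114250761), stood at 127 and 122 CPM in control lung and 15.5 and 15 CPM after cisplatin, a log2 fold change of -3.03 ± 0.15 (adjusted p = 0.00907). Gpd2, the mitochondrial glycerol-3-phosphate dehydrogenase, stood at 157 and 153 CPM against 34.2 and 31.2 CPM (log2 fold change -2.24, adjusted p = 0.0224). Prkar2b, a regulatory subunit of protein kinase A, stood at 183 and 190 CPM against 54.1 and 52.4 CPM (log2 fold change -1.83, adjusted p = 0.0292). All 3 are known from adipose tissue.

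Rftn1, a lipid raft protein of lymphocytes, stood at 43.9 and 41.7 CPM against 10.8 and 10.1 CPM (log2 fold change -2.03, adjusted p = 0.0324). Pde3b, a phosphodiesterase of adipocytes and hepatocytes, stood at 61.9 and 65.5 CPM against 19.4 and 16.7 CPM (log2 fold change -1.85, adjusted p = 0.0325). Sgk1 was called higher, at 132 and 128 CPM against 348 and 310 CPM (log2 fold change 1.34 ± 0.18, adjusted p = 0.0456). In a fit that shares its spread over the 4 organs the calls of Prkar2b (adjusted p = 0.159), Rftn1 (0.0641), Pde3b (0.0929) and Sgk1 (0.17) were lost. Without either cisplatin library all 6 calls in lung were lost, with adjusted p from 0.171 for Gpd2 to 0.765 for Prkar2b, in the same direction.

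Markers of other cell types moved with the lung result. The 6 adipocyte markers summed to 979 and 966 CPM in control lung and 149 and 53.7 CPM in cisplatin lung, and Ucp1, which marks brown fat, stood at 314 and 302 CPM against 18.6 and 0.542 CPM. The 8 B cell markers summed to 408 and 419 CPM against 126 and 91.9 CPM, the 8 T cell markers to 200 and 199 CPM against 60.6 and 50.7 CPM, and the 6 thymocyte markers to 96.3 and 104 CPM against 10.3 and 12.6 CPM, with Ptcra at 0 in cisplatin library 1. All 6 adipocyte and all 8 B cell genes were lower in both cisplatin libraries than in both controls. The 4 markers of high endothelial venules summed to 270 and 274 CPM against 78.4 and 78.6 CPM. Cardiac muscle markers moved the other way, from 159 and 156 CPM to 355 and 250 CPM. The part of these cells in the values of Acacb, Gpd2, Prkar2b, Rftn1, Pde3b and the lymphoid genes below was not tested.

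Averaged over the 4 organs, 210 genes of the class were called lower (background 3.94%) and 1 higher (background 1.13%) of 1268 tested, with a median log2 fold change of -0.54. This count ranged from 109 without cisplatin library 1 of kidney to 418 without cisplatin library 1 of liver, and was 35 when kidney was left out.

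Pdgfc was lower in every organ. It stood at 7.99 and 6.57 against 1.40 and 1.14 CPM in liver, at 4.59 and 4.64 against 1.86 and 1.68 CPM in lung, and at 7.65 and 8.78 against 2.91 and 3.89 CPM in spleen. The arms did not overlap in any organ, and the average log2 fold change was -1.96 ± 0.14 (adjusted p = 0.000265). The average of Slc22a23 was -1.61 (adjusted p = 0.00071), and in lung its libraries stood at 70.5 and 73.7 against 56.8 and 51.0 CPM, the smallest change among the organs.

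Others among the 10 largest average falls were Mpped2 (-2.16), a metallophosphoesterase, Tet1 (-1.77), a 5-methylcytosine dioxygenase, Slx4ip (-1.75), which interacts with the SLX4 nuclease scaffold, BC052040 (-1.65), Med27 (-1.63), a Mediator subunit, Zfat (-1.63), a zinc finger regulator, and Garem1 (-1.62), an adaptor of growth factor receptors. Med27 was lower in 4 of 4 organs, with 11.2 and 10.5 against 3.07 and 2.68 CPM in kidney and 4.49 and 4.74 against 0.818 and 0.740 CPM in liver, but 26.2% of its span is overlapped by a gene on the other strand, and the RNA-seq reads carry no strand. Tet1 is lowly expressed, at 5.49 and 3.52 CPM in control and 0.641 and 0.826 CPM in cisplatin kidney, and its average call was lost without kidney (adjusted p = 0.304). The calls of Mpped2, BC052040, Zfat and Garem1 were also lost without kidney, with adjusted p of 0.0974, 0.0713, 0.119 and 0.181, and those of Tet1 and Garem1 also when single libraries were left out. Sgk1 rose by 1.01 on the log2 scale (adjusted p = 0.00968) and its call, too, was lost without kidney, at an adjusted p of 0.115.

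A difference of the cisplatin effect between organs was called for 1 gene of the 1268, Adcy1, against 0.214% of all genes tested, and 183 genes of the class had an unadjusted p under 0.05 (background 9.72%). Adcy1, a calcium-stimulated adenylyl cyclase, stood at 25.7 and 29.2 CPM in control and 94.5 and 63.2 CPM in cisplatin liver. In kidney it stood at 37.2 and 38.6 against 29.7 and 27.9 CPM, and in spleen at 6.15 and 6.42 against 3.48 and 3.33 CPM. The gene was thus higher in both cisplatin libraries of liver and lower in both of kidney and of spleen (edgeR F test, adjusted p = 0.0338).

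Gene groups were drawn from lists made with earlier results of these data known, and are described by counts and medians beside the class median of -0.65 in kidney. The share called lower over the class was 13.3% in kidney, 2.16% in lung and 16.6% on average over organs, and over all genes 2.87%, 1.63% and 3.94%, and no difference between a group and the class was tested. Of 36 chromatin regulators tested in kidney 10 (27.8%) were called lower, with a median of -0.72. They were led by Jarid2, which recruits Polycomb repressive complex 2, at 71.2 and 47.4 against 17.7 and 15.5 CPM (log2 fold change -1.76, adjusted p = 0.0188). Chd7, a chromatin remodeller, stood at 17.4 and 17.8 against 6.02 and 4.95 CPM (log2 fold change -1.63, adjusted p = 0.0242). Averaged over organs 6 of 35 (17.1%) were called lower.

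Of 71 kinases and phosphatases tested in kidney 11 (15.5%) were called lower, with a median of -0.63, and 18 of 73 (24.7%) on average over organs. Dapk1, a death-associated kinase, stood at 85.5 and 99.3 against 24.0 and 25.7 CPM in kidney (log2 fold change -1.83, adjusted p = 0.0137), and Insr, the insulin receptor, at 128 and 136 against 61.5 and 56.1 CPM (log2 fold change -1.11, adjusted p = 0.0339). Cdk6, a cell cycle kinase, was among those lower on average, with a log2 fold change of -1.16 (adjusted p = 0.00299). Of 54 regulators of small GTPases 7 (13%) were called lower in kidney, near the class share, among them Vav2 and Arhgef10l, both guanine nucleotide exchange factors, with a median of -0.77, and 11 of 55 (20%) on average.

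Of 36 transcription factors tested in kidney 5 (13.9%, near the class share) were called lower, with a median of -0.77. In lung 4 of 36 (11.1%) were called lower. They were Pax5, the B cell commitment factor (46.1 and 48.0 against 11 and 8.05 CPM), Pparg, the master regulator of adipocytes (34.6 and 37.0 against 9.75 and 10.6 CPM), Mef2c and Lef1. In spleen, where B cells are abundant, Pax5 stood at 422 and 430 against 414 and 480 CPM, with overlapping arms. Pax5, Mef2c and Lef1 are also in the list of lymphocyte and endothelial genes, of which 4 of 24 (16.7%) were called lower in lung, while the median of that list was 0.04 in kidney. The B cell, T cell and adipocyte markers given above move with these lung values.

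The DNA damage response and repair list had 12 genes in the class, of which 11 were tested in kidney, with a median of -0.90. Of these 1 (9.09%), the mismatch repair protein Pms1, was called lower there, at 5.69 and 3.91 against 0.961 and 1.22 CPM (log2 fold change -2.02, adjusted p = 0.0463). On average over organs 3 of 12 were called lower, namely Pms1 (-1.39, adjusted p = 0.0357), the helicase Wrn (-1.22, adjusted p = 0.00299) and the annealing helicase Zranb3 (-1.23, adjusted p = 0.0158). Of the p53 pathway list 2 genes were in the class, and Fbxw7, a substrate receptor of an SCF ubiquitin ligase, was called lower in kidney (-1.39, adjusted p = 0.0440), but its whole span is overlapped by an annotated gene on the opposite strand. Of the kidney and liver metabolism list 5 of 39 (12.8%, near the class share) were called lower in kidney, among them Slc22a23 and the mitochondrial aspartate-glutamate carrier Slc25a13 (172 and 167 against 61.6 and 68.2 CPM, log2 fold change -1.31, adjusted p = 0.0210). Of the ubiquitin list 4 of 41 (9.76%) were lower, and of the matrix, adhesion and cytoskeleton list 5 of 54 (9.26%). These kidney counts carry the limit of the class count, which was 3 without cisplatin library 1.

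The second comparison was between the strands in XR-seq, which measures repair. Levels were taken as CPM per 1000 GG of the strand, for the 1373 genes of the class with enough GG and reads. Repair was higher on the TS than on the NTS in the median gene of every library. In kidney the median TS/NTS ratio was 9.88 and 8.69 in the 2 libraries. It was 9.96 and 7.98 in liver, whereas lung had 18.6 and 17.2 and spleen 17.7 and 15.8. The lung and spleen libraries did not overlap those of kidney and liver. The medians over all 18875 genes were lower, at a log2 ratio of 2.73, 2.17, 3.24 and 3.16 in kidney, liver, lung and spleen, against 3.21, 3.17, 4.19 and 4.04 in the class. The next shorter class was close to it, since protein-coding genes of 50 to 100 kb had medians of 3.37, 3.05, 4.27 and 4.08. Those of 200 to 500 kb had 2.74, 2.54, 3.62 and 3.76.

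The TS was called above the NTS (edgeR, adjusted p under 0.05) for 1097 of the 1373 genes in kidney (79.9%, background 60.8%), 1053 in liver (76.7%, background 55.3%), 1144 in lung (83.3%, background 63.7%) and 1142 in spleen (83.2%, background 62.3%). It was called below for 38 in kidney (background 5.03%), 39 in liver (background 6.04%), 34 in lung (background 6.15%) and 26 in spleen (background 5.97%). In protein-coding genes of 50 to 100 kb the TS was called above for 78.2%, 75.2%, 80.6% and 80.1% in the same order of organs. In 981 genes of the class the TS was called above in all 4 organs and in 153 in none. The same counts were not made over all genes, so these 2 values are not a comparison of the class with other genes. Without library 1 of kidney, where many NTS counts were 0, the kidney count was 1080 above and 36 below. Without library 2 it was 1114 above and 59 below.

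**Figure D4:**
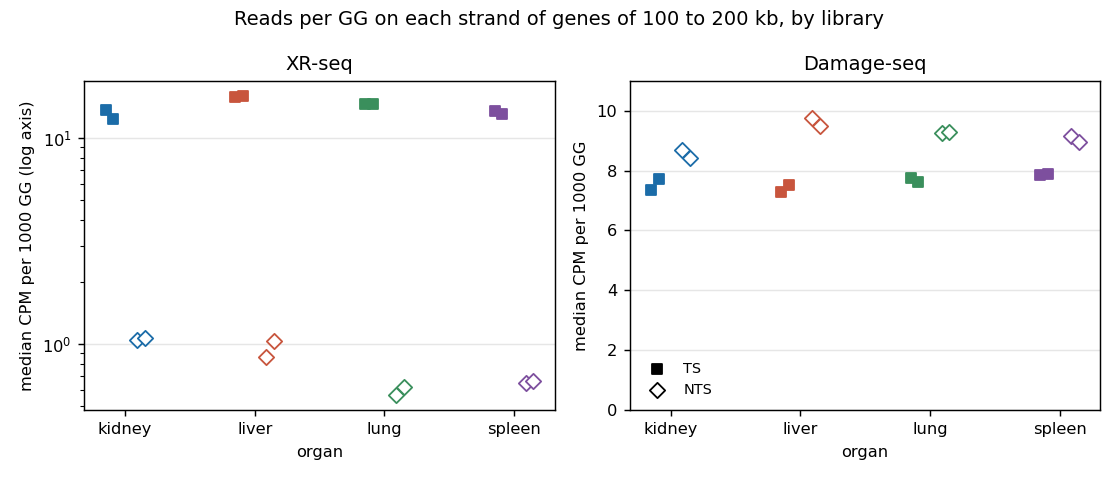
Median CPM per 1000 GG over the genes of 100 to 200 kb on the TS (filled squares) and the NTS (open diamonds) in each XR-seq library (log axis) and Damage-seq library (linear axis from 0). In XR-seq the TS medians lie between 12.4 and 16.0 and the NTS medians between 0.565 and 1.07; in Damage-seq every TS median lies below every NTS median.

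The levels behind these ratios are scaled to the whole library, and from 88.6% to 93.8% of the reads of the class lay on the TS, so that scaling holds the TS level nearly fixed, and which strand differed among organs cannot be told apart. The median TS level was 13.7 and 12.4 CPM per 1000 GG (kidney), 15.7 and 16.0 (liver), 14.7 and 14.7 (lung) and 13.5 and 13 (spleen). The median NTS level was 1.05 and 1.07 (kidney), 0.859 and 1.03 (liver), 0.565 and 0.619 (lung) and 0.646 and 0.656 (spleen).

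Among the largest TS/NTS ratios was Fig4, a lipid phosphatase complex protein of endosomes. Its TS and NTS counts were 3014 and 0 in kidney library 1, and 3673 and 75 in library 2, and the log2 ratio was 6.96 ± 1.05 (adjusted p = 0.000547). In lung its counts were 12025 and 35 in library 1 and 8172 and 109 in library 2, with a log2 ratio of 7.17 ± 1.02 (adjusted p = 0.000327). The library 1 values of Fig4 on the NTS were the lower in both organs. Zfp943 and Tusc3 completed the 3 largest in kidney, with log2 ratios of 7.24 and 7.27, and both had 0 NTS reads in library 1.

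Mdn1, a ribosome assembly ATPase, had TS and NTS counts of 11109 and 96 and of 7142 and 101 in liver (log2 ratio 6.67 ± 0.53, adjusted p = 1.72e-05). In lung they were 6254 and 9 and 4571 and 37 (log2 ratio 8.13 ± 0.58, adjusted p = 6.36e-06), the largest ratio of the class in that organ. Pms1 had 5376 and 62 and 4885 and 39 in liver, a log2 ratio of 6.57 ± 0.95 (adjusted p = 0.000487). Pms1 RNA was among those lower after cisplatin, as given above.

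The other of the 3 largest ratios in liver was Lrriq3 (log2 ratio 6.76) and in lung Cox16 (7.42), a cytochrome oxidase assembly factor. In spleen they were Scn7a (7.37), a sodium channel, Stxbp4 (7.52) and Asah2 (7.56), a neutral ceramidase. Scn7a and Stxbp4 had 0 NTS reads in spleen library 1. The ratio of such genes rests on few NTS reads, and its standard error was 1.12 for Scn7a and 0.70 for Stxbp4. The smallest ratios called in kidney were those of Adgre4 (-5.72), Far2 (-5.46) and Fam184b (-4.33), whose adjusted p in a fit of kidney alone was 0.104, 0.0668 and 0.0617.

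XR-seq strand ratios were higher in genes with more RNA. In kidney the median log2 TS/NTS ratio was 0.55 for genes of the class under 0.1 RPKM after cisplatin, 3.04 from 0.1 to 1, 3.65 from 1 to 10 and 3.43 at 10 RPKM or more. In liver it was 0.60, 3.79, 3.93 and 3.17 in the same bins, in lung 0.75, 3.06, 4.58 and 4.54, and in spleen 1.15, 3.10, 4.71 and 4.36. In each organ the highest bin was not above the one before it. Spearman's rho between the ratio and RPKM was 0.42 (kidney), 0.48 (liver), 0.40 (lung) and 0.49 (spleen) over 1373 genes, as a description across genes of the same libraries.

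**Figure D5:**
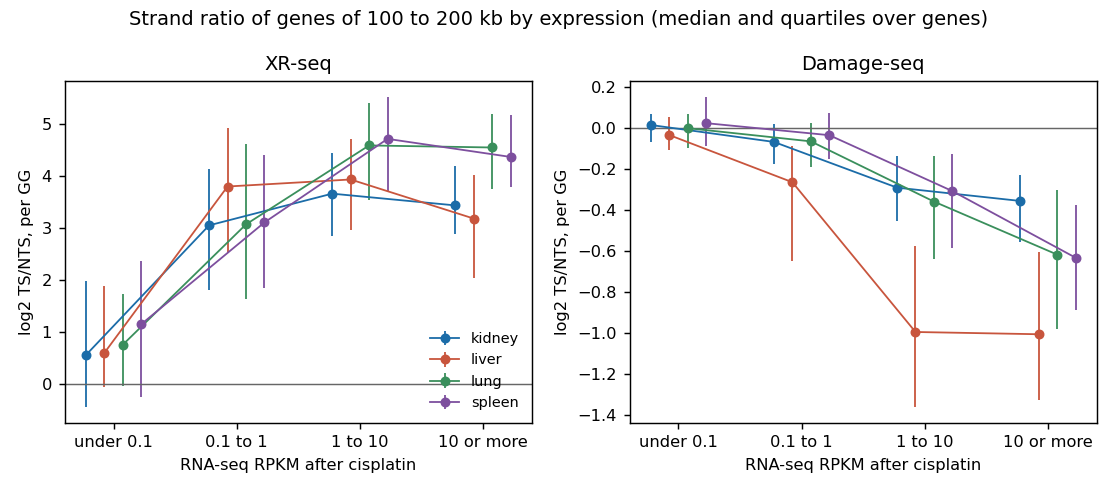
Log2 TS/NTS ratio per GG of the genes of 100 to 200 kb in 4 bins of RNA-seq level after cisplatin (RPKM), for XR-seq (left) and Damage-seq (right). Points are medians and bars quartiles over genes; the XR-seq medians in kidney are 0.55, 3.04, 3.65 and 3.43, and the Damage-seq medians in liver reach -1.0 and -1.01 in the 2 upper bins.

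The genes with more repair on the NTS than on the TS were few, and most had a gene annotated on the other strand. In 67 genes the TS was called below the NTS in at least 1 organ, and 55 of these (82.1%) had a gene on the opposite strand, against 776 of the other 1306 (59.4%). The TS was called below in all 4 organs for 11 genes, namely Ccdc146, Ccdc73, Ccr9, Dnah17, Fam196b, Glp2r, Grin3a, Igf2bp3, Impg1, Itga11 and Lrrc4. Counts over several organs, such as these 67 and 11 genes, were not made for all genes. Fam196b lies wholly inside Dock2, a haematopoietic exchange factor, on the other strand, and Lrrc4 wholly inside Snd1, a widely expressed nuclease domain protein. Grin3a and Itga11 had no opposite gene in the annotation. An overlap of any length was counted, and it covered only 1.33% of the span of Igf2bp3, 0.604% of Impg1 and 5.25% of Dnah17. For Ccdc146, Ccdc73, Ccr9 and Glp2r it ran from 11.6% to 38.6%.

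Ccr9, a chemokine receptor of gut-homing lymphocytes, had TS and NTS counts of 119 and 4922 and of 86 and 4133 in liver, a log2 ratio of -5.50 ± 0.33 (adjusted p = 4.4e-06). Igf2bp3, an oncofetal RNA-binding protein, had 77 and 4731 and 119 and 3198 in lung, a log2 ratio of -5.28 ± 0.46 (adjusted p = 1.75e-05). Fam196b had 36 and 1700 and 164 and 5509 in spleen, a log2 ratio of -5.31 ± 0.41 (adjusted p = 1.12e-05). Both libraries of the organ had the same direction for each of these genes, and the RNA level of Ccr9 in cisplatin liver was 0.0776 RPKM. Grin3a, a glutamate receptor subunit, had 44 and 1077 and 69 and 859 in liver, a log2 ratio of -4.20 ± 0.48 (adjusted p = 0.000129). Among the 542 genes without an opposite gene the TS was above in 428, 409, 448 and 446 and below in 5, 6, 4 and 4 in kidney, liver, lung and spleen.

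The third comparison was between the strands in Damage-seq, which maps the adducts that remain. Adducts per GG were fewer on the TS than on the NTS in the median gene of every library. The median TS/NTS ratio was 0.853 and 0.913 (kidney), 0.785 and 0.796 (liver), 0.842 and 0.824 (lung) and 0.855 and 0.872 (spleen). Liver lay below the other organs in both libraries. The difference was smaller in the class than over all genes, with a median log2 ratio of -0.17, -0.32, -0.25 and -0.19 in kidney, liver, lung and spleen against -0.24, -0.46, -0.30 and -0.28.

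The TS was called below the NTS in Damage-seq for 466 of the 1373 genes in kidney (33.9%, background 23.1%), 697 in liver (50.8%, background 36.1%), 659 in lung (48.0%, background 29.7%) and 400 in spleen (29.1%, background 14.5%). The strands of these genes hold more GG, and so more reads, than those of protein-coding genes at large, and the part of this in the counts was not tested. In protein-coding genes of 50 to 100 kb the share with the TS below was higher than in the class, at 38.5% in kidney and 55.9% in liver. In those of 200 to 500 kb it was 21.7% and 37.7%. In the class the TS was called above for 3 genes in kidney (background 0.387%), 3 in liver (background 1.02%), 11 in lung (background 1.45%) and 9 in spleen (background 0.599%). In the class the TS was below in all 4 organs for 234 genes and in none for 478. The same counts were not made over all genes, so these 2 values are not a comparison of the class with other genes. The kidney count was 24 without library 1 of kidney, and the spleen count was 233 without library 1 and 150 without library 2 of spleen.

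Cd47, the membrane protein that signals against phagocytosis (chr16:49800533-49915010), had the lowest or second lowest ratio in 3 organs. In liver its TS and NTS held 1.52 and 5.89 CPM per 1000 GG in library 1 and 1.44 and 6.73 in library 2, a log2 ratio of -2.06 ± 0.24 (adjusted p = 3.48e-12). In lung they held 1.32 and 6.20 and 1.97 and 6.81 (-1.98 ± 0.20, adjusted p = 2.68e-14), and in spleen 1.56 and 6.21 and 1.11 and 5.11 (-2.09 ± 0.30, adjusted p = 1.29e-07). In kidney the values were 3.19 and 4.81 and 3.55 and 4.75 (-0.51, adjusted p = 0.0314), a smaller difference. Its XR-seq log2 ratio was 4.19 (kidney), 3.57 (liver), 4.71 (lung) and 3.54 (spleen), so the order of organs in repair was not that in damage.

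Nsd1, a histone H3 lysine 36 methyltransferase, had the lowest ratio in liver, with 2.45 and 9.70 and 1.99 and 9.77 CPM per 1000 GG on the TS and NTS (log2 ratio -2.10 ± 0.20, adjusted p = 1.3e-15). Cep85l followed in liver at -2.04. In kidney the lowest were Tmem267 (-1.36), Ppp1r12a (-1.05), a myosin phosphatase subunit, and Spag9 (-1.01), a JNK scaffold. In lung they were Cd47, Bmpr2 (-1.80), a receptor for bone morphogenetic proteins that is prominent in vascular endothelium, and Ostf1 (-1.67). In spleen they were Tmem267 (-2.20), Cd47 and Tlk1 (-1.66), a chromatin assembly kinase. Tmem267 had only 1088 GG on its template strand, the lowest density of the class at 8.84 per kb, and 1892 on its coding strand, so its value per GG rests on an unusual base count.

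Of the genes called with more adducts on the TS, the XR-seq TS was called below the NTS in the same organ for 1 of 3 in kidney, 3 of 3 in liver, 3 of 11 in lung and 2 of 9 in spleen. Those of them named by the rule were Ccr9 in kidney (0.43, adjusted p = 0.0157) and liver (0.62, adjusted p = 0.00114), Lrrc4 in liver (0.54) and spleen (0.65), Ccdc146 in liver (0.31), Igf2bp3 in lung (0.38, adjusted p = 0.00472) and Fam196b in spleen (0.74, adjusted p = 0.000465). The others named by the rule were Cpvl and Fyb2 in kidney (0.29 and 0.35), Galnt16 and Rfx4 in lung (0.35 and 0.37) and Klhl13 in spleen (0.52). These differences were at most 1.67-fold, and most calls were lost when 1 library of the organ was left out. Without library 1 of kidney the adjusted p was 0.33 for Ccr9, 0.593 for Fyb2 and 0.577 for Cpvl. Without library 1 of liver it was 0.131 for Lrrc4, 0.0982 for Ccr9 and 0.0633 for Ccdc146. Without library 2 of liver it was 0.54 for Ccdc146. Igf2bp3 in lung stood at 0.19 without library 1 (adjusted p = 0.384), where Galnt16 had an adjusted p of 0.0857, and Klhl13 and Lrrc4 in spleen had 0.696 and 0.149 without library 2. The calls of Rfx4 in lung and Fam196b in spleen were kept without each library. Tested against a log2 ratio of 0.4 (edgeR), none of the named calls was kept. The adjusted p was then 0.704 for Rfx4 and 0.0629 for Fam196b.

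The damage ratio moved with expression in the other direction from the repair ratio. In liver its median log2 value was -0.03 under 0.1 RPKM, -0.26 from 0.1 to 1, -1.0 from 1 to 10 and -1.01 at 10 RPKM or more. In kidney it was 0.02, -0.07, -0.29 and -0.36, in lung 0.00, -0.06, -0.36 and -0.62, and in spleen 0.02, -0.03, -0.31 and -0.63. Protein-coding genes under 100 kb had -0.75 (kidney), -1.52 (liver), -0.87 (lung) and -0.82 (spleen) at 10 RPKM or more, further from 0 than the class. From 1 to 10 RPKM they had -0.40, -1.19, -0.43 and -0.42, and from 0.1 to 1 RPKM -0.04, -0.18, -0.04 and -0.02. Spearman's rho with RPKM was -0.64 (kidney), -0.74 (liver), -0.58 (lung) and -0.65 (spleen), and with the XR-seq ratio -0.50, -0.57, -0.57 and -0.50, over 1373 genes each.

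Groups of the class were also described for repair and damage, beside class shares of 79.9%, 76.7%, 83.3% and 83.2% with the TS above in XR-seq and of 33.9%, 50.8%, 48.0% and 29.1% with the TS below in Damage-seq in kidney, liver, lung and spleen, and differences between groups were not tested. All 36 chromatin regulators had the TS above the NTS in XR-seq in each organ, and the TS was below in Damage-seq for 29 (kidney), 32 (liver), 29 (lung) and 23 (spleen), with a median log2 ratio of -1.08 in liver. Of 43 ubiquitin genes 28, 36, 35 and 24 were below in Damage-seq in the same organs, with a median of -0.97 in liver. Of 39 metabolism and transport genes 30 were below in liver, with a median of -1.07, and 9 in spleen, with a median of -0.22. Of 24 lymphocyte and endothelial genes the TS was above in XR-seq for 17, 19, 21 and 24 in kidney, liver, lung and spleen, with median log2 ratios of 2.71, 2.31, 4.14 and 3.81. In Damage-seq 13 of them were below in lung (54.2%, where 29.7% of all genes were), 3 in liver (12.5%, against 36.1%), 4 in spleen (16.7%, near the 14.5% of all genes) and 0 in kidney (edgeR, against 23.1%, with 2 at an unadjusted p under 0.05). The 12 repair genes of the class were above in XR-seq in 11 cases in kidney and in all 12 in the other organs, with a median of 4.22 in liver.

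The genes called lower in RNA in kidney were set beside the others for repair and damage. The 156 genes had a median XR-seq TS/NTS ratio of 13.3, against 10.5 in the 1017 genes tested and not called and 1.5 in the 199 not tested. Their TS held a median of 23.4 XR-seq CPM per 1000 GG, against 15.4 and 0.442. Their median Damage-seq log2 ratio was -0.29, against -0.20 and 0.01, and their median span was 141 kb, against 130 and 137 kb. Their median RNA level was 4.78 RPKM in control and 1.67 RPKM in cisplatin kidney, against 3.32 and 2.08 RPKM in the genes not called. In lung the 27 genes called lower had a median XR-seq ratio of 20.7 against 19.9 in the 1224 not called, and a median Damage-seq log2 ratio of -0.25 against -0.29, so the damage values stood in the opposite order to kidney. Across the class Spearman's rho between the fold change in RNA and the XR-seq log2 ratio was -0.21 (kidney), -0.42 (liver), -0.15 (lung) and -0.14 (spleen).

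The last comparison asked in which organ the XR-seq strand ratio of a gene departed from the mean of the other organs. In kidney 20 genes of the class were higher (background 1.75%) and 259 lower (background 5.75%), and in liver 82 were higher (background 3.24%) and 310 lower (background 15%). In lung 265 were higher (background 9.9%) and 30 lower (background 1.27%), and in spleen 183 were higher (background 5.28%) and 33 lower (background 1.75%). In protein-coding genes of 50 to 100 kb 23.6% were lower in liver and 18.1% higher in lung, against 22.6% and 19.3% in the class. In those of 200 to 500 kb the shares were 22.6% and 17.1%. In kidney (lower) and spleen (higher) they were 10.0% and 7.82% from 50 to 100 kb and 24.5% and 24.4% from 200 to 500 kb. The counts in the class depended on single libraries. The lung count was 0 without lung library 1 (edgeR, with 293 at an unadjusted p under 0.05) and 442 without kidney library 1, and the spleen count was 0 without spleen library 1 (with 316 at an unadjusted p under 0.05) and 317 without kidney library 2. Leaving out 1 library moved the kidney count of higher genes between 6 and 137 and the liver count between 7 and 130.

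Among the genes with the largest departures were several with RNA mainly in that organ. Crp had a log2 ratio of 4.66 and 4.62 in the liver libraries, and its ratio in the other organs lay between -0.06 and 0.87. Its RNA stood at 127 RPKM in cisplatin liver and at most 0.251 RPKM elsewhere. Fut9, a fucosyltransferase, had 3.42 and 3.8 in kidney against -0.32 to 1.45 elsewhere, and Col4a4, a chain of the glomerular basement membrane collagen, had 3.65 and 3.24 in kidney, 1.40 and 1.48 in lung and negative values in liver and spleen. Cacna1i, a T-type calcium channel, had 4.36 and 4.35 in spleen and lay between -0.53 and 0.78 elsewhere. The call of Crp was lost without library 2 of kidney (adjusted p = 1), library 1 of liver (0.08) or library 2 of liver (0.0983), that of Fut9 without library 1 of liver (0.059) or library 1 of lung (0.051) and that of Cacna1i without library 1 of spleen (0.0772), with differences of 2.99 or more in each.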

How the data were processed

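RNA-seq, XR-seq and Damage-seq libraries of 4 mouse organs were used (32 samples). The authors deposited whole-number counts of reads per gene, split by strand for XR-seq and Damage-seq. Per the labels' processing notes these counts came from reads aligned to mm10 with BWA after cutadapt and Picard (XR-seq and Damage-seq) or with STAR and featureCounts (RNA-seq), with DESeq2 for RNA-seq. The counts are not normalized, the RNA-seq is poly(A)-selected and carries no strand, and 16 lines without a gene name were dropped. Of 25058 genes in all 3 assays, 25040 had a position in GENCODE release M21 and were analysed.

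RNA-seq genes with a mean of at least 0.5 CPM over the arm means were fitted per organ with edgeR 4.0.16 in R 4.3.3 (TMM, quasi-likelihood, glmTreat against a log2 fold change of 0.4), with Benjamini-Hochberg adjustment over all genes and a threshold of 0.05. RNA-seq library pairs whose chi-square index was at most 3 were summed and counted as 1 sample. The rule was applied to RNA-seq alone. In Damage-seq, which has fewer reads per library, the index of a strand ran from 1.43 (spleen TS) to 3.11 (kidney NTS). Those pairs were kept as 2 samples. A joint fit gave the average over organs and the difference between them. Strands were compared with a term for each library and strand within organ, with library size and GG count of the strand as offset. Genes needed GG on both strands, at least 10 GG on 1 of them, and 20 reads per assay. DESeq2 1.42.0 was an alternative, and the other alternatives were filters, normalization, a replicate block, a test against 0 and leaving out each library or organ. RPKM was computed here from the counts and the merged exon length. The scripts were tested on simulated data. Depth per library is given as ranges with the results. The study's methods call the 2 libraries of a group biological replicates, while the labels tie no library to an animal, so the p-values measure the spread between these libraries.

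Genes were named by rule: per organ the 5 called genes with the smallest adjusted p in each direction whose arms did not overlap, the 10 largest falls and 5 largest rises on average, the 3 largest and 3 smallest strand ratios, the 3 largest rises of an organ against the others, examples of each list, and the genes at the bounds of span. The members and lists were chosen with earlier results of these data known. Some genes that the rule names are not reported here.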

Additional observations from a re-analysis of the deposited data

Results flagged for a closer look

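The XR-seq strand ratio differed between organs by a test of the difference itself, 1 organ against the mean of the other 3 (edgeR, adjusted p under 0.05). In kidney 20 genes of 100 to 200 kb were higher (1.46% of the class, under the 1.75% of all genes) and 259 lower (18.9% against 5.75%), and in liver 82 were higher (5.97% against 3.24%) and 310 lower (22.6% against 15%). Lung had 265 higher (19.3% against 9.9%) and 30 lower (2.18% against 1.27%), and spleen 183 higher (13.3% against 5.28%) and 33 lower (2.4% against 1.75%). The counts of higher genes without 1 library ran from 6 to 137 in kidney, from 7 to 130 in liver, from 0 to 442 in lung and from 0 to 317 in spleen, the 0 arising without library 1 of lung and without library 1 of spleen. Neighbouring span classes had similar shares in liver and lung. Protein-coding genes of 50 to 100 kb had 23.6% lower in liver and 18.1% higher in lung. Those of 200 to 500 kb had 22.6% and 17.1%. The median difference in liver was -0.52 in the class and -0.68 over all genes. In kidney (lower) and spleen (higher) the shares were 10.0% and 7.82% from 50 to 100 kb and 24.5% and 24.4% from 200 to 500 kb.

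The genes with the largest differences, in log2 units of the ratio, were in kidney Fut9 (3.14), Col4a4 (3.92) and Sgpp2 (4.00), a sphingosine phosphatase. In liver they were Lgr5 (3.76), a receptor of Wnt-responsive pericentral hepatocytes, Crp (4.31) and Them7 (4.62). In lung they were Reep1 (3.73), Slc24a4 (3.87), a sodium/calcium exchanger, and Vsnl1 (3.92), a calcium sensor. In spleen they were Sh3gl3 (3.92), Nfasc (3.98), a neurofascin, and Cacna1i (4.17). Of these 12 genes, 9 lost the call without at least 1 library, all but Col4a4, Sgpp2 and Them7.

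Adcy1 was the 1 gene of the class whose RNA response to cisplatin was called different between organs, at an adjusted p of 0.0338 (edgeR F test), with a log2 fold change of 1.5 in liver, -0.34 in kidney, -0.22 in lung and -0.86 in spleen. When kidney, lung or spleen was left out, edgeR called 0 genes of the class different, with 170, 170 and 128 at an unadjusted p under 0.05.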

How the results depend on the processing

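The sign of every class median held under each alternative and without each library, from -0.71 to -0.62 in kidney, -1.21 to -0.60 in liver, -0.49 to -0.38 in lung and -0.37 to -0.20 in spleen for RNA, and no named gene reversed (1011 values of named genes kept their call and 105 lost it). Counts of calls moved much more. For genes lower in RNA they became, in kidney, 375 with no filter, 534 with a replicate block and 341 against a fold of 0. In liver they became 26 with DESeq2, 17 with no filter, 161 in one fit over 4 organs and 273 with the block. In lung they became 73 with DESeq2, 295 with each library a replicate, 47 with filterByExpr, 161 with no filter, 5 in one fit, 335 with the block and 104 against 0. In spleen they became 1 with DESeq2, no filter, one fit or upper-quartile scaling, 3 with each library a replicate and 7 with the block. The average gave 338 with each library a replicate, 429 with the block, and 35, 101 and 129 without kidney, liver and lung. The difference between organs gave 86, 17 and 258 with each library a replicate, no filter and the block, and 0 without kidney, lung or spleen. In the labels the pairs share only a number, while their deviations correlated at 0.66 (kidney), 0.53 (liver), 0.075 (lung) and 0.13 (spleen), 2 pairs each. Whether the pairs mark a shared batch was not tested, and counts with the block are given only here. The block fits kept each library as a replicate, so they also undid the summing of the near-copy control pairs of lung and spleen. This holds for the average and the difference between organs as well. The part of each change in these counts was not tested. Leaving out 1 library gave 3 to 320 lower genes in kidney, 0 to 377 in liver, 0 to 30 in lung, 0 to 1 in spleen, 109 to 418 on average and 0 to 23 for the difference.

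Genes with the TS below in Damage-seq numbered 165, 260, 249 and 152 in kidney, liver, lung and spleen without an opposite gene, and 66 in kidney, 309 in lung and 164 in spleen against a log2 ratio of 0.4. Without 1 library they ran from 24 to 498, 545 to 708, 503 to 671 and 150 to 420. Genes with the TS above in XR-seq numbered 428, 409, 448 and 446 without an opposite gene, and ran from 1072 to 1114, 940 to 1078, 1059 to 1184 and 1071 to 1178 without 1 library. Genes higher in 1 organ than in the others numbered 12 in kidney, 148 in lung and 111 in spleen against 0.4, and without 1 library 6 to 137, 7 to 130, 0 to 442 and 0 to 317 in kidney, liver, lung and spleen. The cause of these changes was not tested, apart from the smaller set of genes without an opposite gene.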
